A study of Mus musculus with 4 samples.

Results

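The fibrinogen chains and the clotting factors of the plasma cascade were followed in the aging mouse liver. They comprised 10 genes, the chains Fga, Fgb and Fgg and the factors F2, F5, F7, F9, F10, F11 and F12. All probe sets annotated to 1 of these symbols alone were taken, which gave 13 of the 45101 probe sets of the array. F10 had 3 probe sets, F5 had 2 and each other gene had 1. The study measured liver RNA of male C57BL/6J mice, an inbred strain, at 4, 8, 13 and 21 months of age. The mice were bought at 4 weeks, have no engineered allele named in the labels, and ate a low-fat diet ad libitum at every age. At every age a pool of RNA from 6 mice went onto 1 oligonucleotide array, so each age is 1 value with no replicate error, and the spread between mice is unknown. No test between ages could be made, no p-value is given, and each difference is a size measured between pools.

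Blood clots when thrombin cuts soluble fibrinogen, which is built of paired alpha, beta and gamma chains, into fibrin. Thrombin is released from its precursor by a chain of serine proteases that activate each other in turn, and hepatocytes make most of them. Prothrombin and factors VII, IX and X need vitamin K, which modifies glutamate residues so that the proteins bind calcium and membranes. Fibrinogen is also an acute phase protein, and its genes are known to respond in hepatocytes to interleukin 6 through the factor STAT3, with C/EBP proteins also acting on them.

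The promoters of the fibrinogen chains are shown because these genes were higher together at 21 months, and that of F7 because its values over the ages were closest to theirs among the clotting factors. The 3 chain genes lie next to each other on chromosome 3 in the order Fgg, Fga and Fgb. The sequences are the 250 bases before each gene's start, from RefSeq on GRCm38.p6, written 5′ to 3′ on the gene's strand. All 10 genes matched a promoter by gene identifier. Capitals mark matches, on either strand, to 5 short motifs. TATAAA is the core promoter box, CAAAGT belongs to the HNF4 site, TTCNNNGAA is the STAT site, CTGGGA is the core of the interleukin 6 response element, and TTGCNNAA is a C/EBP site. The letters GTTAAT of the HNF1 site were planned too but were not searched, so they stand unmarked. Read on the other strand, as ATTAAC, they occur in lower case in the Fga and Fgb promoters. Their share over all promoters was not counted.
Fga promoter, chr3:83025903-83026152, plus strand: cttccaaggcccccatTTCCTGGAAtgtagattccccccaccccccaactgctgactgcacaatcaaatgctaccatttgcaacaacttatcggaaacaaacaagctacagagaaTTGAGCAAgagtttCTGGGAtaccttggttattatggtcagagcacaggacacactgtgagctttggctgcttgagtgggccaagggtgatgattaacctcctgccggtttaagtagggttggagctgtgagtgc
Fgb promoter, chr3:83049864-83050113, minus strand: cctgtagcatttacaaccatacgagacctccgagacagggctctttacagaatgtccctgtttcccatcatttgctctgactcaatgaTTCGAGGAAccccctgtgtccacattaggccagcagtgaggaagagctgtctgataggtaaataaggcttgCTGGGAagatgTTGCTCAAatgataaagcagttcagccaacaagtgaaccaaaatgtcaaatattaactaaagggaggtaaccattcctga
Fgg promoter, chr3:83007474-83007723, plus strand: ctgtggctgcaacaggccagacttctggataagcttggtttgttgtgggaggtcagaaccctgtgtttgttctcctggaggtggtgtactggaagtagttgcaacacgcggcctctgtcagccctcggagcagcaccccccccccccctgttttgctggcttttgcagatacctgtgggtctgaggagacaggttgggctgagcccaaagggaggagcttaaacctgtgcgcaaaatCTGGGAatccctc
F7 promoter, chr8:13025784-13026033, plus strand: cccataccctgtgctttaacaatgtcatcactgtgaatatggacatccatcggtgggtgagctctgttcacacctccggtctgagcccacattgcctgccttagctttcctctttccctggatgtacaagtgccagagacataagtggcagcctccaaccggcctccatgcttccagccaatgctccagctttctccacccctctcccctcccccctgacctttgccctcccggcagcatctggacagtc
The promoters of Fga and Fgb each held 1 match to the STAT, interleukin 6 and C/EBP letters, and that of Fgg held only the interleukin 6 core. In the Fga promoter the interleukin 6 core lay 121 to 116 bases before the start and the C/EBP match 135 to 128. In the Fgb promoter the C/EBP match lay 80 to 73 bases before the start and the interleukin 6 core 91 to 86. In the Fgg promoter the interleukin 6 core lay 13 to 8 bases before the start. The promoter of F7 held none of these letters, nor did those of F2, F5 and F12. Over all 10 genes the CTGGGA core occurred in 5 promoters, the C/EBP letters in 4, the STAT letters in 3, the HNF4 motif in 2 and TATAAA in 0. Of the 27025 genes with a promoter of this length, 26.8% held CTGGGA, 9.55% the C/EBP letters, 7.18% the STAT letters, 12.5% the HNF4 motif and 13.0% TATAAA. Some of these letters can overlap, as in the F9 promoter, where the STAT match at 82 to 74 bases before the start covers the CTGGGA core at 81 to 76 on the other strand. A match is a description of the letters and no evidence of binding.

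Values are deposited log2 expression values, on which a difference of 1 is 2-fold. Probe sets differ in how well they bind their target, so a level of 1 gene was not set against a level of another. Where a gene had several probe sets, the brightest on average stood for it. All 10 genes passed the filter on level, a mean of at least 3.74, as did 11582 genes in all, and 8 of the 10 had a mean of at least 10, as did 565 genes in all. The array medians lay between 3.73 and 3.76. The 3′ probe set of Gapdh, a control of RNA integrity, lay 0.11 to 0.21 above the 5′ one. That of beta-actin, another such control, lay 1.01 to 1.16 above its 5′ one. The liver label was borne out by hepatocyte genes such as Alb, which encodes albumin, at 13.43 to 13.49. In RNA of whole liver, fewer cells of a type and less RNA per cell cannot be told apart.

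The fibrinogen chains were all highest at 21 months, by 0.12 to 0.37 over 4 months. Fgb, the beta chain, was at 12.07, 12.05, 12.07 and 12.44 at 4, 8, 13 and 21 months. The 3 younger pools lay within 0.02 of each other, and the 21-month pool stood above them, by 0.37 over 4 months, which is 1.29-fold. Fgg, the gamma chain, was at 12.53, 12.48, 12.45 and 12.70, so that 21 months was higher than 4 months by 0.17 (1.13-fold). Fga, the alpha chain, was at 12.21, 12.08, 12.14 and 12.33, with a difference of 0.12 (1.09-fold) between 21 and 4 months. Its lowest value, at 8 months, was 0.13 below that at 4 months, so the younger pools of Fga differed as much among themselves as the oldest from the youngest. The beta chain thus differed most between the oldest and youngest pool and the alpha chain least. Among the 565 kept genes with a mean of at least 10, 3.54% had a difference between 21 and 4 months as high as Fgb or higher, against 13.6% for Fgg and 20.7% for Fga. All 3 chains lay near the bright end of the arrays, whose highest probe sets were at 13.66 to 13.70, and whether the response of these probe sets was compressed was not tested.

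**Figure D1:**
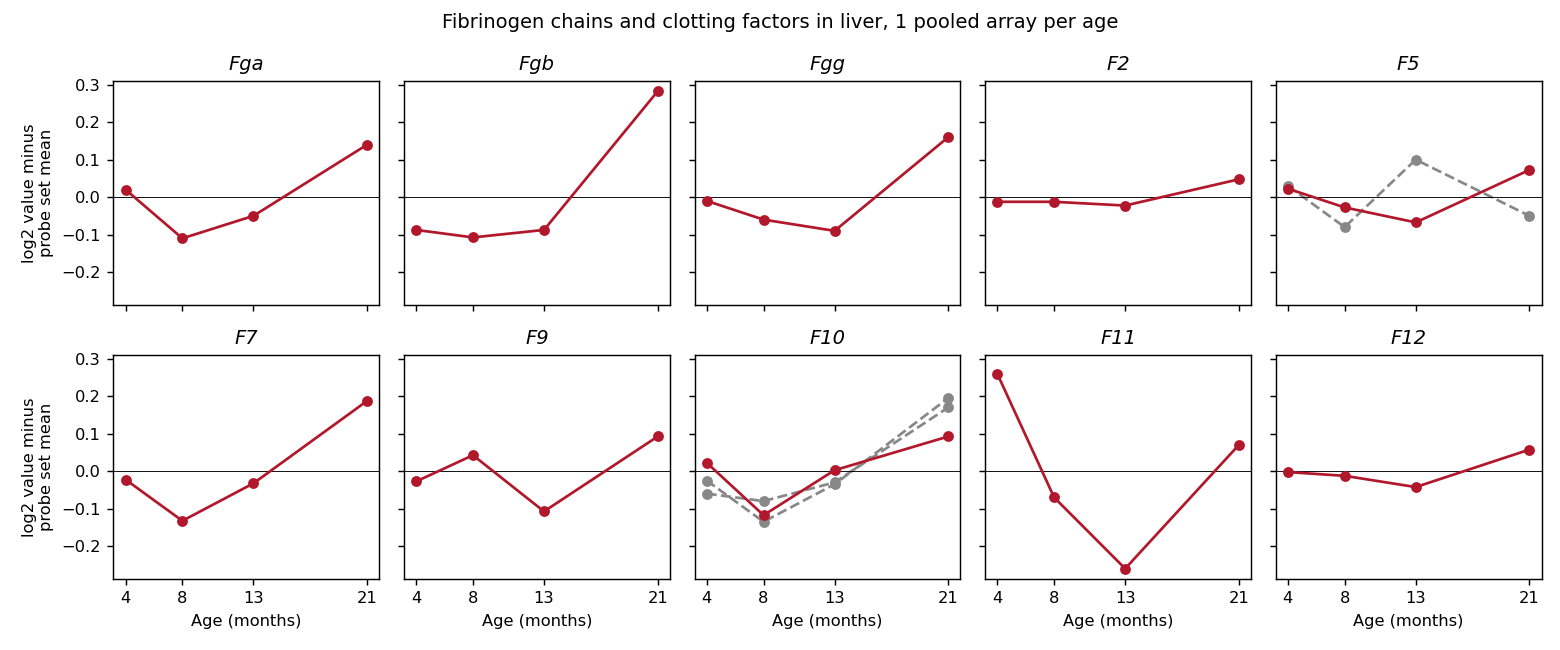
Log2 value minus the mean of the probe set over the 4 arrays (vertical axis) against age in months (horizontal axis) for each gene, with the probe set of highest mean as a solid red line and other probe sets of the gene as dashed grey lines. Each point is 1 array of pooled RNA; the chains Fga, Fgb and Fgg have their highest point at 21 months, F11 has its highest at 4 months, and the 2 probe sets of F5 part at 13 and 21 months.

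In the deposited values the vitamin K dependent proteases were also highest at 21 months, by small amounts. With quantile normalization F2 and F9 were not highest there, and with cyclic loess F9 was not. F7 encodes factor VII, which starts clotting when it meets tissue factor, and was at 9.25, 9.14, 9.24 and 9.46. Its 21-month value was above the other 3, by 0.21 (1.16-fold) over 4 months and by 0.32 (1.25-fold) over 8 months. F10 encodes factor X, which when activated cuts prothrombin, and its brightest probe set was at 10.08, 9.94, 10.06 and 10.15. The other 2 probe sets of F10 were at 7.30, 7.28, 7.33 and 7.53 and at 6.96, 6.85, 6.95 and 7.18. All 3 were lowest at 8 months and highest at 21 months, but between 21 and 4 months the brightest differed by 0.07 and the dimmer ones by 0.23 and 0.22, and over the mean of the 3 the difference was 0.17. F9, factor IX, whose loss causes hemophilia B, was at 10.13, 10.20, 10.05 and 10.25. Its values alternated between neighbouring ages, and its 21-month value exceeded that at 8 months by 0.05 only. F2, prothrombin, the precursor of thrombin, was at 11.78, 11.78, 11.77 and 11.84. With a range of 0.07 over the ages F2 was the most even of the 10 genes.

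F5 and F12 varied little. F5 encodes factor V, the cofactor with which factor X cuts prothrombin, and its brighter probe set was at 10.72, 10.67, 10.63 and 10.77. Its other probe set was at 10.14, 10.03, 10.21 and 10.06, highest at 13 months. The probe sets disagreed in direction, with 21 minus 4 months at 0.05 for the brighter and -0.08 for the dimmer, so no direction is given for F5. F12 encodes factor XII, which starts the contact phase on negatively charged surfaces, and was at 10.25, 10.24, 10.21 and 10.31, a range of 0.10.

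F11 differed from the other 9 genes, by the probe sets that stood for them, in being highest at 4 and not at 21 months. Its lowest value was at 13 months, as for Fgg, F2, F9, F12 and the brighter probe set of F5. F11 encodes factor XI, a protease that activates factor IX, and was at 7.99, 7.66, 7.47 and 7.80. It was highest at 4 months, lower by 1.26-fold at 8 months and by 1.43-fold at 13 months, and the 21-month pool lay between those of 8 and 4 months. Its range of 0.52 was the widest of the 10 genes, above that of Fgb with 0.39 and F7 with 0.32. F11 was also the dimmest of the representing probe sets, with a mean of 7.73, and differences of dimmer genes spread more widely on these arrays. For 8 vs 4 months the 5th and 95th percentiles of the difference were -0.27 and 0.28 over all kept genes and -0.18 and 0.14 over those with a mean of at least 10. For 13 vs 4 months the 5th percentile over all kept genes was -0.27, and F11 was at -0.52.

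At 21 vs 4 months 0 of the 10 genes were higher by 1.5-fold or more and 0 lower, where 2.1% of all kept genes were higher and 0.423% lower. At the lower size of 1.2-fold, 1 gene was higher, Fgb, and 0 were lower, beside 9.01% and 5.49% of all kept genes. By any size 9 genes were higher and 1, F11, was lower, where 51.4% of all kept genes were higher and 45.2% lower. The 9 became 8 when the probe sets of a gene were averaged, where F5 turned to -0.02. The median difference of the 10 genes was 0.095, beside 0.01 for all kept genes. Of the 3 fibrinogen chains the median was 0.17, and of the other 7 genes 0.06. The latter was 0.014 with quantile normalization and 0.025 with cyclic loess, while that of the chains stayed between 0.135 and 0.19 under the settings tried.

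In the step from 13 to 21 months all 10 genes were higher by the probe set that stood for them, from 0.07 for F2 to 0.37 for Fgb, where 50.4% of all kept genes were higher and 46.4% lower. The dimmer probe set of F5 went the other way, at -0.15 beside 0.14 for the brighter, so F5 has no settled direction in this step either. The count was 9 when the probe sets of a gene were averaged, where F5 was at -0.005, and 10 under each of the other normalizations tried. None of the 10 reached 1.5-fold in either direction, beside 1.47% higher and 0.458% lower among all kept genes. By 1.2-fold 2 were higher, Fgb and F11, and 0 lower, beside 9.12% and 6.37%. The median was 0.195, beside 0.01 for all kept genes and 0.00 for those with a mean of at least 10. Between 13 and 21 months Fgg was higher by 0.25, F7 by 0.22, F9 by 0.20 and Fga by 0.19. The 95th percentile of all kept genes for this step was 0.36, and Fgb lay just past it while the other 9 genes lay inside. The comparisons 21 vs 13 and 21 vs 4 months share the 21-month array, so a deviation of that pool enters both.

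**Figure D2:**
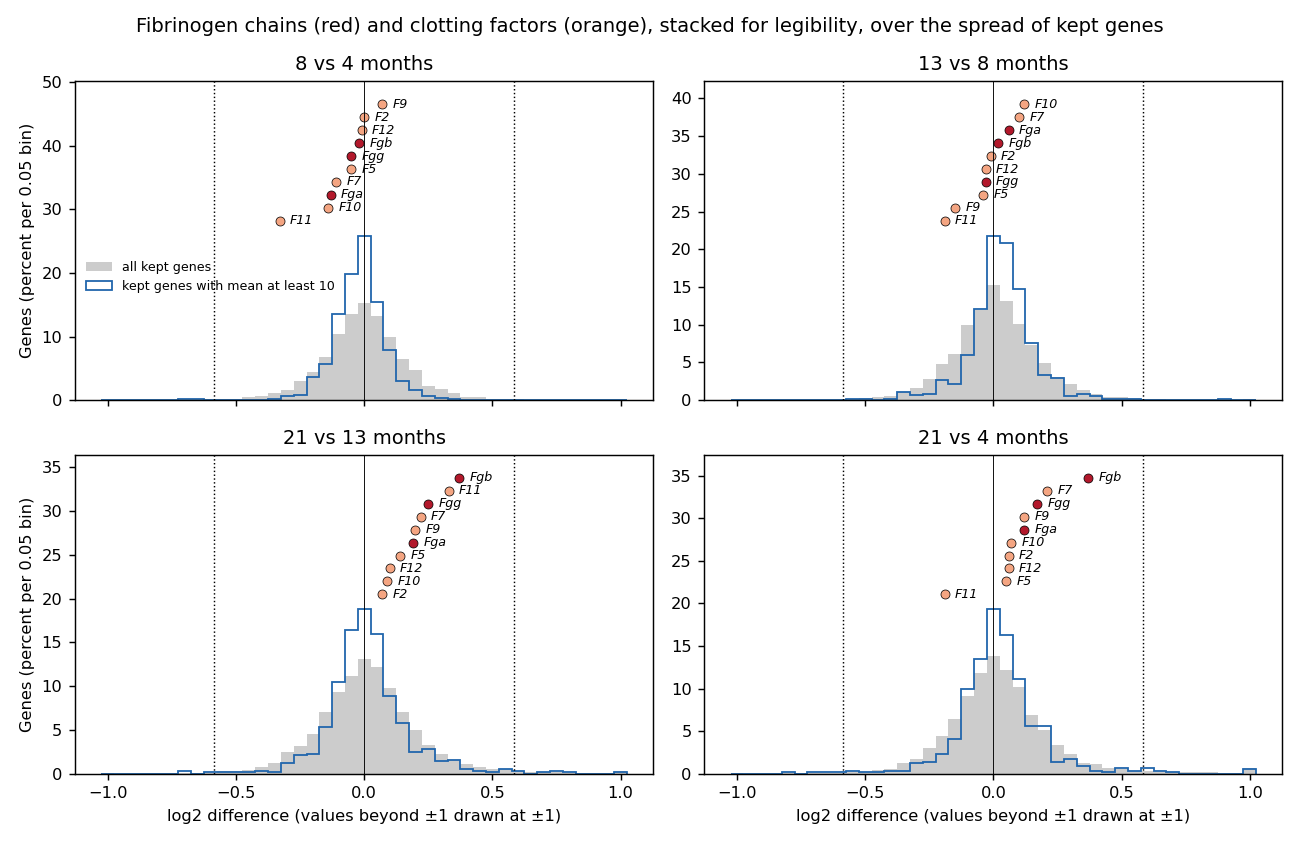
Histograms of the log2 difference between ages (horizontal axis) as percent of genes per 0.05 bin (vertical axis), for all 11582 kept genes in grey and the 565 with a mean of at least 10 in blue, with the fibrinogen chains as red and the clotting factors as orange points stacked above for legibility. Dotted lines mark 1.5-fold; no point reaches them, all 10 points lie right of 0 at 21 vs 13 months (F5 by its brighter probe set), and F11 lies left of the rest at 8 vs 4 and 21 vs 4 months.

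The earlier steps were smaller for most of these genes, but the step from 13 to 21 months also spans the longest time. At 8 vs 4 months 8 genes were lower, 1 higher (F9) and F2 equal, where 48.7% of all kept genes were lower and 47.5% higher, and the median was -0.05. By 1.2-fold 1 gene was lower, F11 with -0.33, beside 5.3% of all kept genes, and 0 were higher, beside 5.38%. At 13 vs 8 months 4 genes were higher and 6 lower, where 50.2% and 45.9% of all kept genes were, with a median of -0.02. By 1.2-fold 0 of the 10 were higher and 0 lower in that step, beside 6.53% higher and 4.91% lower among all kept genes. None of the 10 reached 1.5-fold in either step, where 0.501% were higher and 0.354% lower at 8 vs 4 months and 0.717% and 0.363% at 13 vs 8 months. At 13 vs 4 months, a count added after the values were seen, 9 genes were lower, 0 were higher and Fgb was equal, where 45.5% of all kept genes were lower and 51.1% higher. The median was -0.055, F11 was at -0.52 and the other 8 lower genes were within 0.09 of their 4-month value. The 9 were 8 to 10 under other probe set and normalization settings. Over the 4 ages 0 of the 10 genes moved in 1 direction at every step, which 4.37% of all kept genes did upward and 3.13% downward. The highest value was at 21 months in 9 of the 10 genes, all but F11, where 30.3% of all kept genes and 35.0% of those with a mean of at least 10 had it there. This count was made after the values were seen, and it was 8 with the mean over probe sets, 9 with arrays centred on their median, 6 with quantile normalization and 8 with cyclic loess. The 3 chains, F7 and F10 were highest at 21 months under each of these settings.

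Likeness to the fibrinogen pattern was measured as the root mean square distance, over the 4 arrays, between a gene's values centred on its own mean and the mean centred values of the 3 chains. Fgg lay 0.026 from this mean, Fga 0.039 and Fgb 0.055. F7 lay 0.030 from it, nearer than Fga and Fgb, followed by F10 with 0.070 and F5 with 0.073, while F11 lay farthest with 0.181. The distance of F5 is that of its brighter probe set only, and its other probe set was highest at 13 months, unlike the chains. The nearest kept genes were Fam43a, Sc5d, Arap1, Spata2 and Tubg1, within 0.0014 to 0.011. With 4 arrays such likeness is common, and 489 of 11582 kept genes lay within the distance of Fgb.

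Neighbouring clotting genes on the chromosome were compared after their values were seen. F7, F10 and Proz, which encodes the vitamin K dependent protein Z, lie next to each other on chromosome 8. Proz was at 9.74, 9.61, 9.56 and 9.73, so its 21-month value did not exceed that at 4 months, unlike F7 and F10. F11 lies next to Klkb1, which encodes plasma prekallikrein of the contact phase. Klkb1 was at 9.64, 9.52, 9.43 and 9.53, highest at 4 and lowest at 13 months like F11, with a range of 0.21. Plrg1, a splicing factor gene on the far side of Fgb, was at 7.21, 7.26, 7.27 and 7.40.

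The other parts of the clotting system were described from lists. Of 4 other kept factor genes 2 were higher and 1 lower at 21 vs 4 months, beside 51.4% and 45.2% of all kept genes. F13a1, the catalytic subunit of the factor that crosslinks fibrin, was close to the filter on level, at 3.54, 3.74, 3.75 and 3.95, and higher at every step. F8, factor VIII, made in liver endothelium rather than hepatocytes, was at 6.05, 5.88, 5.85 and 5.96. F13b, the carrier subunit of the same factor, was even, at 9.85, 9.83, 9.86 and 9.85. Vwf, von Willebrand factor of endothelium and platelets, was dim and uneven, at 4.11, 4.43, 3.86 and 4.44. Tissue factor, F3, lay below the filter on level. Of 3 kept contact system genes 2 were higher at 21 than at 4 months, among them Kng1, the kininogen gene, by 0.21, and Klkb1 was at -0.11. None of these genes reached 1.5-fold at 21 vs 4 months, beside 2.1% higher and 0.423% lower among all kept genes.

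Genes listed with the natural anticoagulants differed unequally. Of 11 kept genes of the anticoagulant list 8 were higher and 2 lower at 21 vs 4 months, with a median of 0.08. By 1.5-fold 1 was higher and 0 were lower. Over all kept genes 51.4% were higher and 45.2% lower, and by 1.5-fold 2.1% were higher and 0.423% lower. Serpinc1, antithrombin, was at 12.48, 12.52, 12.54 and 12.56, and Proc, protein C, was at 11.01 at 4 and 13 months and 0.01 lower at 8 and 21 months. Both varied over the ages by 0.08 or less, as did prothrombin. Serpina10, the inhibitor that works with protein Z against activated factor X, was at 10.33, 10.37, 10.37 and 10.93, so that it stood out at 21 months by 0.60 over 4 months. Pros1, protein S, the cofactor of protein C, was higher by 0.34, and C4bp, counted in this list, by 0.44. Among 5 kept fibrinolysis genes 4 were higher and 1 lower, and none reached 1.5-fold. Plg, plasminogen, the precursor of the protease that dissolves fibrin, was at 12.22, 12.16, 12.23 and 12.31, and Serpinf2, which inhibits plasmin, at 10.62, 10.39, 10.57 and 10.81. The vitamin K cycle and secretion genes had a median of 0.025 over 10 kept genes, which was -0.02 at its lowest under other normalizations, with 6 higher and 4 lower and none past 1.5-fold. Ggcx, the carboxylase that uses vitamin K, was highest at 4 months, at 7.28, 7.01, 6.91 and 7.10, and Vkorc1, which recycles the vitamin, was at 11.02, 11.03, 11.12 and 11.06.

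**Figure D3:**
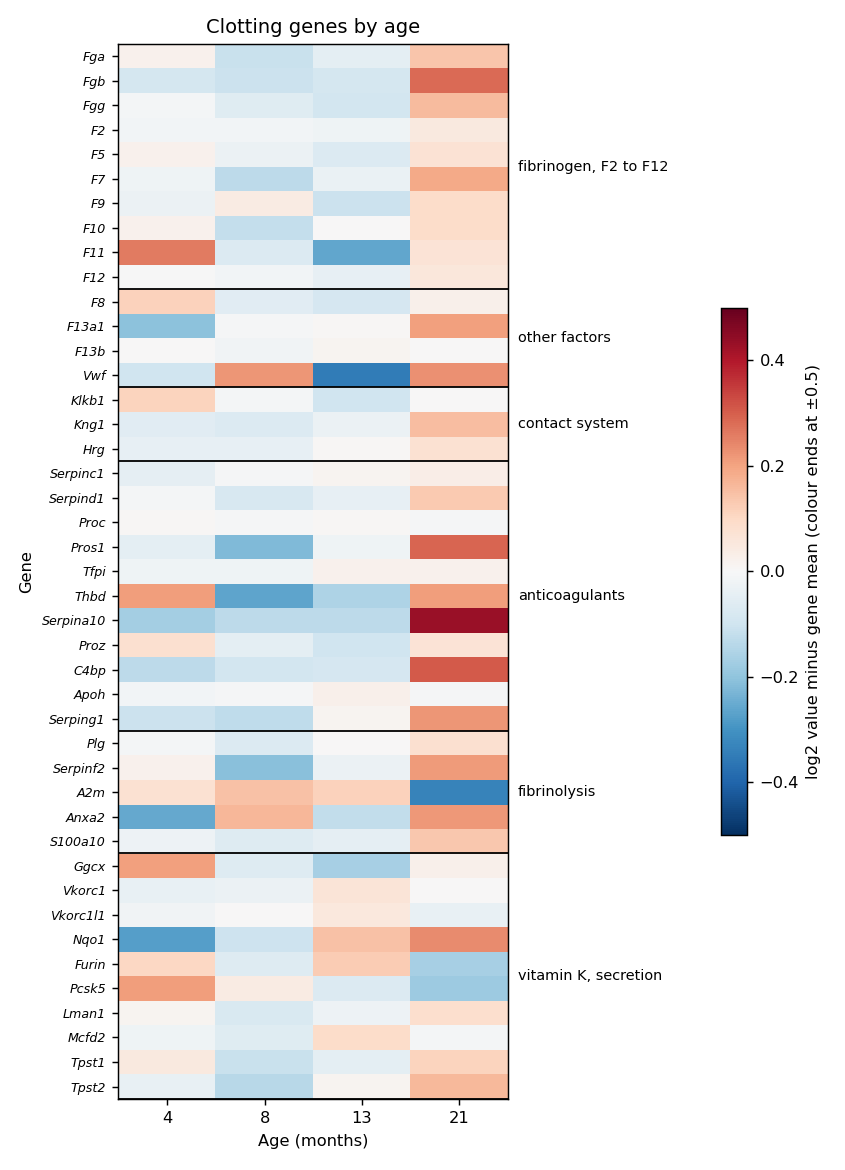
Log2 value minus the mean of the gene over the 4 arrays, in colour from blue (lower) to red (higher), for the fibrinogen chains and clotting factors and for the other kept genes of the clotting system (rows) at each age in months (columns). Cells above the gene mean at 21 months mark every row of the top block, Serpina10 reaches the strongest red there, and F11, Klkb1 and Ggcx have their highest cell at 4 months.

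Fibrinogen was set beside other acute phase genes of the liver. All 23 kept acute phase genes outside clotting lay above their 4-month value at 21 months, beside 51.4% of all kept genes. This list was chosen with earlier results of these data known. The difference reached 1.5-fold in 13, beside 2.1% of all kept genes, and the median was 0.69, against 0.17 for the fibrinogen chains. Whether the bright probe sets of the chains were compressed was not tested. Saa2, a serum amyloid A gene, was at 6.55, 6.52, 6.21 and 11.15, and Hp, haptoglobin, at 12.31, 12.35, 12.42 and 12.79. The difference of Fgb between 21 and 4 months, 0.37, was near those of Hp with 0.48 and Hpx, hemopexin, with 0.29, and far below that of Saa2 with 4.60. The acute phase genes Crp with 0.08, Hamp with 0.13, Cfb with 0.23 and Cp with 0.31 differed less than Fgb did. Fgl1, a fibrinogen-like gene that is no part of fibrinogen, was at 10.48, 10.27, 10.56 and 11.83. Of 12 kept interleukin 6 signalling genes 9 were higher and 3 lower at 21 vs 4 months, and the median was 0.125, or 0.055 when the probe sets of a gene were averaged. In this list Stat3 was higher by 0.63, the 1 gene past 1.5-fold, and the receptor gene Il6ra was at -0.20. Socs3, a feedback inhibitor of the pathway, was uneven, at 6.70, 7.07, 6.46 and 7.11, so that 21 months was 0.41 above 4 months. Il6 lay below the filter on level.

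The transcription factors known to support clotting genes in hepatocytes differed otherwise. Of 13 kept genes 5 were higher and 8 lower at 21 vs 4 months, beside 51.4% and 45.2% of all kept genes. The median was -0.12, where the clotting genes had 0.095. Hnf4a was at 10.92, 10.88, 10.77 and 10.78, Cebpa between 9.97 at 4 months and 10.22 at 13 months, and Cebpb at 10.19, 9.91, 10.20 and 10.18. Foxa1 was at 7.88, 7.89, 7.88 and 7.37, the largest lower difference of the list at 21 vs 4 months. Onecut1 was at 5.39, 6.15, 6.28 and 5.23, so that its 21-month value was 1.05 below that at 13 months and 0.16 below that at 4 months. Esr1, the estrogen receptor, was higher by 0.82, the 1 gene past 1.5-fold, where 2.1% of all kept genes were that much higher and 0.423% lower.

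Cell type markers were measured beside these results. Hepatocyte markers were even, with 6 of 14 higher and 6 lower at 21 vs 4 months, a median of 0.00 and mean levels of 12.6 at each age. Most of them lay near the bright end of the arrays, whose highest probe sets were at 13.66 to 13.70. Whether compression there hid differences was not tested. Kupffer cell and macrophage markers were higher in 13 of 14 cases, 9 at least 1.5-fold, with a median of 0.72 and mean levels of 7.50, 7.03, 7.64 and 8.20. Among all kept genes 51.4% were higher and 2.1% at least 1.5-fold higher. Platelet and megakaryocyte markers, whose cells carry fibrinogen and factor V, were higher in 3 of 8 cases and lower in 5, with a median of -0.02 and mean levels of 4.78 to 4.97. Sinusoidal endothelium markers had a median of 0.03 over 12 genes. Neutrophil markers were higher in 6 of 7 cases, with a median of 0.28, stellate cell markers in 7 of 9 with 0.04, and the 2 kept cholangiocyte and 2 kept erythroid markers had medians of 0.205 and -0.04, with the duct keratins Krt19 and Krt7 and the globin gene Hba-a1 below the filter on level. The part of the macrophage and acute phase differences in the values of the clotting genes was not tested.

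**Figure D4:**
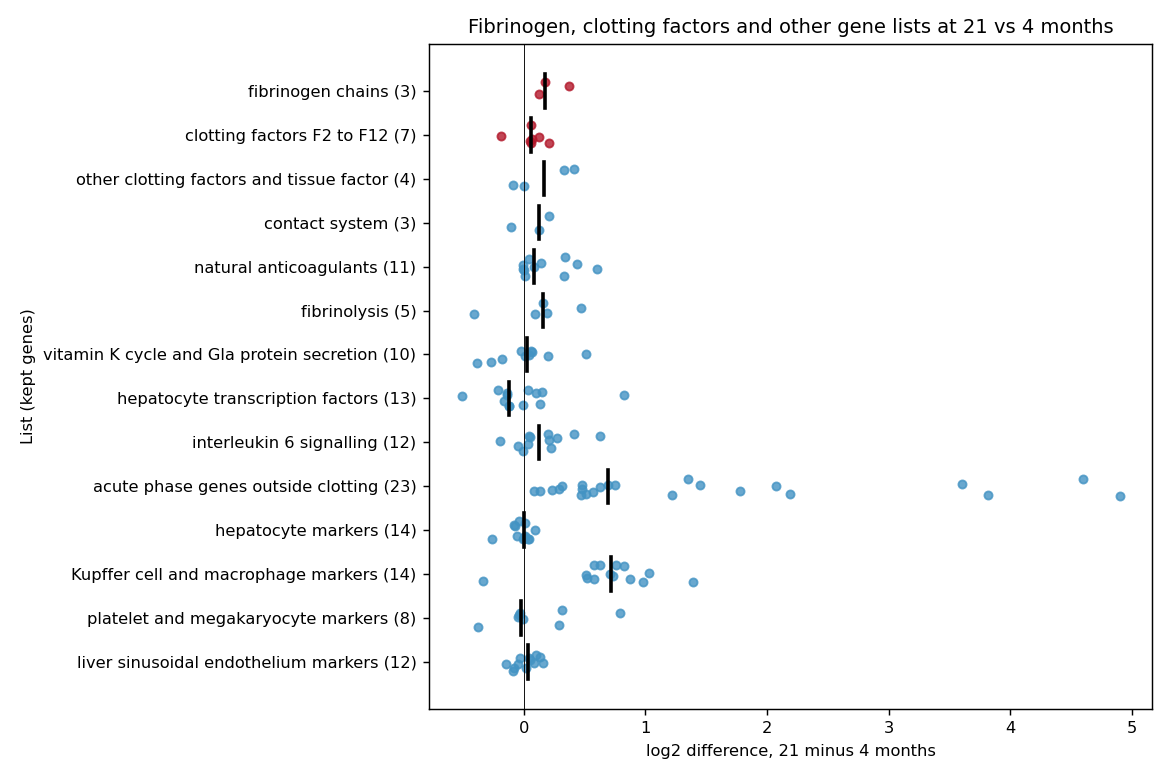
Log2 difference between 21 and 4 months (horizontal axis) for each kept gene of a list (points, 1 row per list with its number of genes), with the median as a black bar; fibrinogen and clotting factor rows are red. The fibrinogen chains lie between 0.12 and 0.37 and the other 7 clotting factors between -0.19 and 0.21, while acute phase genes reach 4.90 and Kupffer cell and macrophage markers have a median of 0.72.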

How the data were processed

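Liver RNA pools of 4 ages were measured on 4 arrays, 1 per age, and groups were taken from the labelled age. The deposited values are log2 expression values per probe set, made with RMA per the submitters' processing notes. RMA corrects background, normalizes between arrays and summarises probes. For its version, the genome build and the set of arrays processed jointly: not given in the sources used here. RMA brings arrays to similar distributions, so a shift of most genes would not show.

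Gene names came from the platform annotation, where 34945 had 1 symbol, 932 several and 9160 none, besides 64 controls. Gene identifiers of all 10 genes matched a GRCm38.p6 gene table, with 0 symbols changed. Of 18193 genes, those whose highest probe set mean reached the median of all probe set means, 3.74, were kept. Genes were counted at 1.5-fold, with 1.2-fold and 2-fold as alternatives. Other alternatives were the mean over probe sets, centring, quantile normalization, cyclic loess and other filters. The counting step was run on simulated data with built-in differences, which checks the code and not the calls in these data. The clotting genes and the lists were chosen with earlier results of these data known. Named genes were the 10 genes, the nearest 5 in pattern, and list members past 1.5-fold or fixed by name. Beyond that rule, Hpx, Fgl1, Crp, Hamp, Cfb, Cp, C4bp, F13a1, Foxa1, Onecut1, Proz and Plrg1 were chosen after their values were seen. Some listed genes are not reported here. Apoh and F8 are each in 2 lists. Tables were computed in Python 3.11.15 with pandas 2.3.3 and numpy 2.4.6, figures with matplotlib 3.10.9, and the 2 other normalizations with limma 3.58.1 in R 4.3.3.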

Additional observations from a re-analysis of the deposited data

How the results depend on the processing

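With 1 array per age no array could be left out of a group and no error is known; a log2 difference was called moved when it differed by at least 0.1, and a count when it differed by more than 1.5 times. No paired analysis was possible because each age has 1 pool and no test was run. At 1.2-fold the count of clotting genes became 1 lower at 8 vs 4 months, 2 higher at 21 vs 13 months and 1 higher at 21 vs 4 months, each 0 at 1.5-fold; at 2-fold all counts were 0. The medians moved by less than 0.1 under every setting tried: at 21 vs 13 months they ran from 0.17 to 0.22 and at 21 vs 4 months from 0.055 to 0.12, and the latter was also 0.12 for 21 months against the average of the younger arrays, an addition made with the data in view. The median at 13 vs 8 months, -0.02, became 0.005 with the mean over probe sets. Fold and filter settings could not change the medians of the clotting genes. Of 40 differences of single genes 8 changed sign or became 0, and 1 that was 0 (F2 at 8 vs 4 months) took a sign, under at least 1 probe set or normalization setting, none with a size over 0.14, and the largest move was 0.145, for F5. Among the 8 gene lists, only the vitamin K and secretion list changed the sign of its median at 21 vs 4 months under the probe set and normalization settings, from 0.025 to -0.016. Among the 8 marker lists, hepatocyte, sinusoidal endothelium and platelet medians, each within 0.03 of 0 in the report, fell on either side of 0. Filters on level moved the counts over all kept genes. The counts of the clotting genes were taken without the filter here, so it could not move them. Without the 8-month array the count of clotting genes moving in 1 direction at every step was 0, as in the report. Asking for steps of at least 0.05 could not raise that count from 0.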
